A study of Mus musculus with 6 samples.

Results

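The genes followed here were apolipoprotein genes of the liver and the gene of the lipid transfer protein that lipidates apoB. They were followed in livers of mice in which *Spns1*, the gene of a lysosomal lysolipid transporter, was deleted after birth. The 10 genes, chosen by name among the 54532 genes listed, were *Apoa1*, *Apoa2*, *Apoa4*, *Apoa5*, *Apob*, *Apoc1*, *Apoc2*, *Apoc3*, *Apoe* and *Mttp*. All 10 passed the filter on low counts and were among the 15449 genes tested.

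RNA-Seq libraries of poly-A RNA from whole liver were compared between 3 g*Spns1*-cKO and 3 control mice, 1 library per mouse. The g*Spns1*-cKO mice carried loxP sites around exon 3 of both *Spns1* copies (*Spns1* fl/fl) and a tamoxifen-dependent Cre recombinase at the ubiquitously active Rosa26 locus (Rosa26Cre-ERT2), and tamoxifen was injected i.p. at 50 mg/kg on postnatal days 11, 13 and 15. The deletion was therefore made in the whole body and not in hepatocytes alone. Per the methods, the controls were *Spns1* fl/fl littermates without Cre on a C57BL/6 background, whereas the sample labels call them wild type. The age and sex of the sequenced mice, and whether the controls received tamoxifen, are not given in the sources used here. The p-values below set differences between the groups against the spread between mice, with these 6 mice as the units.

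Very low density lipoprotein (VLDL) is built in the endoplasmic reticulum of hepatocytes, where the microsomal triglyceride transfer protein MTP, made from *Mttp*, lipidates a single apoB molecule as it is translated. Small exchangeable apolipoproteins then coat the particle. ApoC-II activates lipoprotein lipase, apoC-III inhibits it, apoA-V promotes triglyceride clearance and apoE is bound by hepatic receptors, while apoA-I and apoA-II are the main proteins of high density lipoprotein (HDL). Several of the genes lie in 2 compact clusters, one on chromosome 9 with *Apoa1*, *Apoc3*, *Apoa4* and *Apoa5* and one on chromosome 7 with *Apoe*, *Apoc1* and *Apoc2*.

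The libraries held 30350002 to 35295611 counts. TMM scaling, which equalizes the bulk of genes between libraries, gave factors of 0.834 to 0.873 in control livers and 1.16 to 1.18 in g*Spns1*-cKO livers, and the 100 most abundant genes took 42.0% to 42.6% of counts in controls and 37.0% to 37.4% in g*Spns1*-cKO livers. CPM below are counts scaled to a common, TMM-adjusted library size. Without TMM scaling (library size only) the log2 fold changes of all genes tested moved from a median of 0.01 to one of 0.46, and each log2 fold change moved up with it by about as much. *Spns1* itself had 35.9, 50.7 and 34.6 CPM in control replicates 1, 2 and 3 and 17.8, 30.6 and 17.8 CPM in the same replicates of the g*Spns1*-cKO mice, without overlap. The log2 fold change was −0.87 ± 0.25 (SE, adjusted p = 0.030, edgeR's quasi-likelihood test). That call was lost with library size only (adjusted p = 0.213) and without control replicate 2 (0.0785), g*Spns1*-cKO replicate 1 (0.0910) or g*Spns1*-cKO replicate 3 (0.0830). Counts over the whole gene do not separate the deleted exon from the exons that remain.

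Of the 10 genes, 6 were lower in g*Spns1*-cKO livers by edgeR's quasi-likelihood test at an adjusted p under 0.05 and none was higher. The 6 were *Apoa1*, *Apoa2*, *Apoc1*, *Apoc3*, *Apob* and *Mttp*, with log2 fold changes from −1.0 to −0.46. The same test called 20.5% of all genes tested lower and 21.3% higher, and among the 100 most abundant genes, which include 6 of the 10, it called 53.0% lower and 0 higher (2 at an unadjusted p under 0.05, 3 by DESeq2 and 2 by limma-voom). Before adjustment *Apoa4* was also higher (unadjusted p = 0.0408, edgeR's quasi-likelihood test), as it was by limma-voom after adjustment and not by DESeq2. In 7 of the 10 genes every g*Spns1*-cKO liver lay below every control liver, in 1 (*Apoa4*) every one lay above, and in 2 the groups overlapped, beside 26.9% and 27.1% of all genes tested that lay wholly below or above.

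The median log2 fold change of the 10 genes was −0.51, beside 0.01 for all genes tested and −0.56 for the 100 most abundant. Under library size only it was −0.07 beside 0.46, so that relative to the median of all genes it was −0.52 in both scalings. The count of calls depended on the scaling, as did the direction of *Apoa5* and *Apoe*. With library size only, 1 of the 10 was lower (*Apoa2*, where 6.28% of all genes were called lower) and 1 higher (*Apoa4*, where 47.2% were called higher). In bulk liver, fewer cells of a type and less RNA per cell cannot be told apart.

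**Figure D1:**
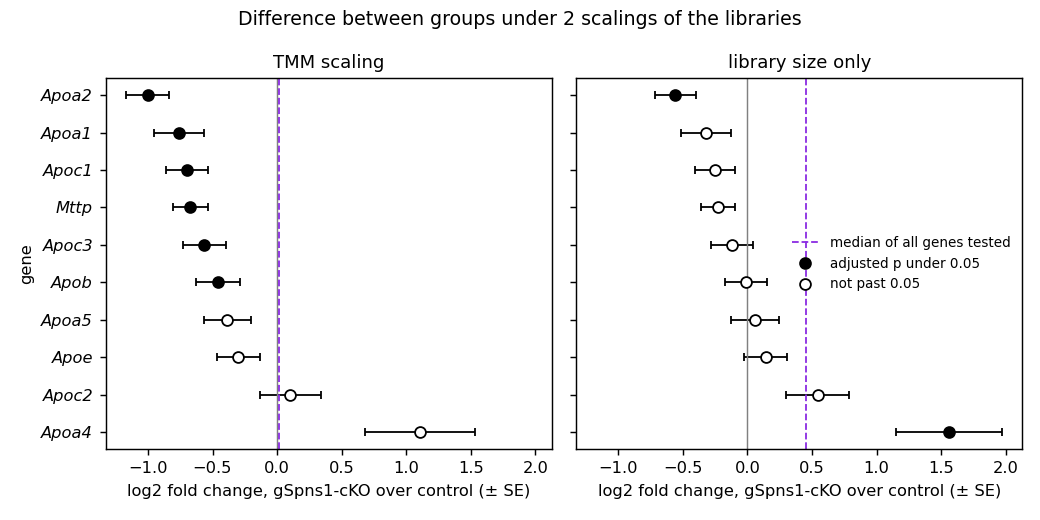
Log2 fold change of each gene, g*Spns1*-cKO over control, with its standard error, under TMM scaling (left) and library size only (right). Filled points passed an adjusted p of 0.05 in edgeR's quasi-likelihood test and the dashed line is the median of all genes tested, at 0.01 on the left and 0.46 on the right. The order of the genes is the same in both panels, while *Apoe* and *Apoa5* lie below 0 on the left and above 0 on the right.

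*Apoa1* and *Apoa4* lie in the chromosome 9 cluster with *Apoc3* between them, and their g*Spns1*-cKO livers lay on opposite sides of the controls. The stretches before their first annotated exons are shown for that reason (RefSeq, GRCm38.p6, plus strand). The *Apoa1* stretch is chr9:46228380-46228579 and the *Apoa4* stretch is chr9:46240594-46240695. They were searched for an HNF4-type motif (CAAAGTNCA, both strands), the nuclear receptor core motif AGGTCA (both strands, letters that the HNF4-type motif does not contain) and the TATA box TATAAA (gene strand), and any match is in capitals.
*Apoa1*: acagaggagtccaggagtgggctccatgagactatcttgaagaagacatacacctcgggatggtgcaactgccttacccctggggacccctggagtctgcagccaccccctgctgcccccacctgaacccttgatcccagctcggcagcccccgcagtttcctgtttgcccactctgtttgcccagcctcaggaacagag
*Apoa4*: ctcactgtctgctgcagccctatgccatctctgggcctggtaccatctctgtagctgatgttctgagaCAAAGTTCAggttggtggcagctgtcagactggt
The *Apoa4* stretch held 1 HNF4-type match and the *Apoa1* stretch held no match to these letters. Of the 32851 upstream windows of 250 bases in the RefSeq table, 1.19% held the HNF4-type letters, 14.0% the core motif and 7.59% the TATA box. A match describes these exact letters and is not a binding site, and the lack of a match does not show that a site is absent. The *Apoa1* stretch had 200 bases and the *Apoa4* stretch 102, both shorter than those windows, because each was cut at the first base of an annotated exon. RefSeq places the starts farther on, at 46228630 for *Apoa1* and 46240844 for *Apoa4*. The bases between the end of each stretch and its RefSeq start were not searched.

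*Apoa2* and *Apob*, a gene of an HDL protein and the gene of the VLDL core protein, both fell and are shown for comparison. The *Apoa2* stretch is chr1:171224804-171225053 and the *Apob* stretch chr12:7977427-7977647, both on the plus strand, and capitals mark TATAAA.
*Apoa2*: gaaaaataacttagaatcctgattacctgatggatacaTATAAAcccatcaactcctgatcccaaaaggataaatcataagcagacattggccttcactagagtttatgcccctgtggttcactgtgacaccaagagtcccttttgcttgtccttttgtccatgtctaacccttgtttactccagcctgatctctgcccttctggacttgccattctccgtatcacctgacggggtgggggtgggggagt
*Apob*: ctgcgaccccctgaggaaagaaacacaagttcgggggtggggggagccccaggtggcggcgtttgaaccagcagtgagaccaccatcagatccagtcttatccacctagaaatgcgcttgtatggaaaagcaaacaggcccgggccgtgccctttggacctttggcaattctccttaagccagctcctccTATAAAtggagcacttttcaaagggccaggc
The *Apob* match lies near the end of its stretch, next to the gene, and the *Apoa2* match near the far end. Neither stretch held the HNF4-type letters or the core motif. The *Apob* stretch was also cut at an annotated exon, before its RefSeq start at 7977677. RefSeq lists another start of *Apoa2* farther upstream, and the window before that start (chr1:171221314-171221563) held the core motif and no TATA box. *Apoc1* and *Apoc3* have no entry in the table, and the window of *Mttp* lies within an annotated exon.

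The core pair of VLDL assembly was lower in g*Spns1*-cKO livers, *Mttp* more firmly than *Apob*. *Mttp* (ENSMUSG00000028158, chr3:138089854-138144968) had 381, 333 and 365 CPM in control replicates 1, 2 and 3 and 252, 200 and 227 CPM in the g*Spns1*-cKO livers. All g*Spns1*-cKO livers lay below all controls. The log2 fold change was −0.67 ± 0.13 (SE), 1.59-fold lower, with an adjusted p of 0.00289 by edgeR's quasi-likelihood test, and it was −0.23 (adjusted p = 0.159) with library size only.

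*Apob* (ENSMUSG00000020609, chr12:7977648-8016835) had 3665, 4602 and 4934 CPM in control livers and 3261, 3285 and 3073 CPM in g*Spns1*-cKO livers. The 3 g*Spns1*-cKO livers lay close together and below the lowest control. The log2 fold change was −0.46 ± 0.17 (SE), with an adjusted p of 0.0494 by edgeR's quasi-likelihood test. The *Apob* call held in 7 of 16 alternative fits. It was lost without control replicate 2 (adjusted p = 0.120), control replicate 3 (0.171), or g*Spns1*-cKO replicate 1 (0.0522), 2 (0.0860) or 3 (0.159). Its log2 fold change was −0.01 with library size only.

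The genes of both main HDL proteins were lower. *Apoa2* (ENSMUSG00000005681, chr1:171225054-171226379) had 11108, 8700 and 10279 CPM in control livers and 4938, 5109 and 4974 CPM in g*Spns1*-cKO livers. It was 2.00-fold lower, a log2 fold change of −1.0 ± 0.17 (SE, adjusted p = 0.00107, edgeR's quasi-likelihood test), and the g*Spns1*-cKO livers differed among themselves by an SD of 0.03 on the log2 scale, beside 0.18 in the controls. *Apoa2* was the member lower in all 16 alternative fits, library size only included (−0.56, adjusted p = 0.0143).

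*Apoa1* (ENSMUSG00000032083, chr9:46228580-46230466) had 16167, 19541 and 14795 CPM in control livers and 8420, 11650 and 9686 CPM in g*Spns1*-cKO livers. No g*Spns1*-cKO liver reached the lowest control. The log2 fold change was −0.76 ± 0.19 (SE, adjusted p = 0.00997, edgeR's quasi-likelihood test). It was −0.32 (adjusted p = 0.190) with library size only, the single alternative fit of 16 in which *Apoa1* was not lower.

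*Apoa4*, whose protein is carried on chylomicrons and HDL and is made in the gut as well as the liver, moved the other way. Its counts as deposited were 3362, 5889 and 9388 in control replicates 1, 2 and 3, against 15711, 16745 and 23419 after deletion. In CPM these were 120, 191 and 371 against 437, 436 and 596. Every g*Spns1*-cKO liver lay above every control and control replicate 3 stood well above the other controls.

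For *Apoa4* (ENSMUSG00000032080, chr9:46240696-46243459) the log2 fold change was 1.11 ± 0.42 (SE), with an adjusted p of 0.0847 by edgeR's quasi-likelihood test, so it did not pass. Without control replicate 3 it was 1.64 (adjusted p = 0.00254), and in the other leave-one-out fits it lay between 0.79 and 1.18. It also passed with library size only (1.56, adjusted p = 0.0198), with limma-voom (1.24, adjusted p = 0.0232, where 21.1% of all genes were called higher) and with the replicate number as a block (1.25, adjusted p = 0.00453, where 20.0% were), and was not called by DESeq2 (1.10, adjusted p = 0.0639). Of its 1815 exon bases, 549 are shared with no other gene, the rest overlapping *Gm10680* and *Gm47528* on the opposite strand. These 2 genes together had 9 to 35 counts per library, so that summing them with *Apoa4* left its log2 ratio of mean CPM at 1.11. How reads on shared bases were counted is not given. Reads left out of every gene are not in this sum, so it cannot show what the overlap did to the *Apoa4* count.

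By the likeness of log2 CPM over the 6 libraries, the genes closest to *Apoa4* among 7994 genes compared were *Trip12* (Pearson r = 0.989), a ubiquitin ligase gene, *Itga5* (0.983), an integrin gene, and *Ficd* (0.979), which encodes an endoplasmic reticulum enzyme that modifies the chaperone BiP. This is a description over 6 points that share the libraries and their scaling. *Trip12*, for example, was counted 2766, 3188 and 2892 times in controls, against 4129, 4531 and 4883 times after deletion. These counts are before scaling. The TMM factors were higher in g*Spns1*-cKO livers, so the rise of *Trip12* in CPM was smaller than its counts show. Pearson r does not measure the size of a change.

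Among the genes for lipolysis regulators on the particle surface, *Apoc3* and *Apoc1* were lower and *Apoc2* and *Apoa5* did not pass. *Apoc3* (ENSMUSG00000032081, chr9:46232933-46235636), the inhibitor, had 3452, 3050 and 3233 CPM in control livers and 2592, 2029 and 1964 CPM in g*Spns1*-cKO livers. The groups did not overlap, and g*Spns1*-cKO replicate 1 was the highest of its group. The log2 fold change was −0.56 ± 0.17 (SE, adjusted p = 0.0210, edgeR's quasi-likelihood test). It did not pass without control replicate 3 (adjusted p = 0.0583), g*Spns1*-cKO replicate 2 (0.0624) or g*Spns1*-cKO replicate 3 (0.102), with upper-quartile scaling (0.0554, where 14.5% of all genes were called lower), or with library size only, where it was −0.12.

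*Apoc1* (ENSMUSG00000040564, chr7:19689481-19692660), whose protein restrains lipoprotein clearance, had 5230, 4399 and 5458 CPM in control livers and 3022, 2965 and 3323 CPM in g*Spns1*-cKO livers. Its log2 fold change was −0.70 ± 0.16 (SE, adjusted p = 0.00647, edgeR's quasi-likelihood test), with no overlap of the groups. It was −0.25 (adjusted p = 0.195) with library size only.

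*Apoa5* (ENSMUSG00000032079, chr9:46268633-46271919) had 941, 1191 and 1030 CPM in control livers and 778, 988 and 654 CPM in g*Spns1*-cKO livers. The groups overlapped, because g*Spns1*-cKO replicate 2 lay above control replicate 1. The log2 fold change of −0.38 ± 0.18 (SE) did not pass (adjusted p = 0.110, edgeR's quasi-likelihood test), turned to 0.06 with library size only, and passed without g*Spns1*-cKO replicate 2 (−0.56, adjusted p = 0.0309).

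*Apoc2* (ENSMUSG00000002992, chr7:19671579-19677941), the lipase activator, was counted at 94, 94 and 59 reads in controls, against 92, 127 and 138 reads after deletion, with overlap. Its log2 fold change was 0.10 ± 0.24 (SE, adjusted p = 0.757, edgeR's quasi-likelihood test). The level is uncertain: 646 of its 813 exon bases (79.5%) are shared on the same strand with the readthrough gene *Gm44805*, which had 0 or 1 count per library, and only 167 bases belong to *Apoc2* alone. How the counting treated reads on shared bases is not given in the sources used here.

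*Apoe* (ENSMUSG00000002985, chr7:19696109-19699188), the receptor ligand, was the most abundant of the 10 by CPM, with 28491, 31784 and 29458 CPM in control livers and 25040, 23860 and 23852 CPM in g*Spns1*-cKO livers. The groups did not overlap, but the log2 fold change of −0.30 ± 0.17 (SE) did not pass (adjusted p = 0.170, edgeR's quasi-likelihood test). DESeq2 called it lower (adjusted p = 0.0145, where 21.2% of all genes were called lower), and with library size only its direction turned (0.14, adjusted p = 0.489). As a share of all counts of a library, with no scaling, *Apoe* took 2.46%, 2.77% and 2.46% in control livers and 2.90%, 2.81% and 2.78% after deletion.

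Together the 10 genes took 6.02%, 6.44% and 5.83% of all counts in control livers and 5.64%, 5.94% and 5.63% after deletion, means of 6.09% ± 0.31 and 5.74% ± 0.18 (SD, n = 3). The groups overlapped. The difference of −0.36 percentage points became −0.84, without overlap, when the 50 most abundant other genes were left out of the total. The chromosome 9 cluster took 1.83% ± 0.24 of counts in control and 1.56% ± 0.19 in g*Spns1*-cKO livers, and the chromosome 7 members 3.00% ± 0.14 and 3.19% ± 0.05 (SD, n = 3), both with overlap.

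Levels between genes were compared as CPM per kb of deposited gene length. That length includes bases shared with other genes, and how reads there were counted is not given. The places of *Apoa4* (549 of 1815 exon bases its own) and *Apoc2* (167 of 813) in the order are therefore uncertain. In control livers the order was *Apoa2* (18676 ± 2278 CPM per kb, SD, n = 3), *Apoe* (13990 ± 792), *Apoa1* (13620 ± 1976), *Apoc1* (6759 ± 749) and *Apoc3* (3200.1 ± 199). Below these, *Apoa5* (418 ± 50.2), *Apob* (316 ± 47.2), *Apoa4* (125 ± 71.4), *Mttp* (58.0 ± 3.95) and *Apoc2* (3.58 ± 0.641) followed. *Apoe* and *Apoa1* overlapped in range, and every other neighbouring pair was separated.

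In g*Spns1*-cKO livers *Apoe* stood first at 11343 ± 320 CPM per kb, above *Apoa2* at 9324 ± 167 and *Apoa1* at 8025 ± 1317, whose ranges overlapped. *Apoa4*, at 270 ± 50.6 CPM per kb, had passed *Apob*, at 230.1 ± 8.33, and overlapped with *Apoa5*, at 319.9 ± 67.0. Among all genes tested, *Apoa4* moved from rank 500 to rank 166 in CPM per kb, while *Apoc1* stayed at rank 10. The ranks of *Apoa4* and its place beside *Apob* carry the doubt on shared bases given above.

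**Figure D2:**
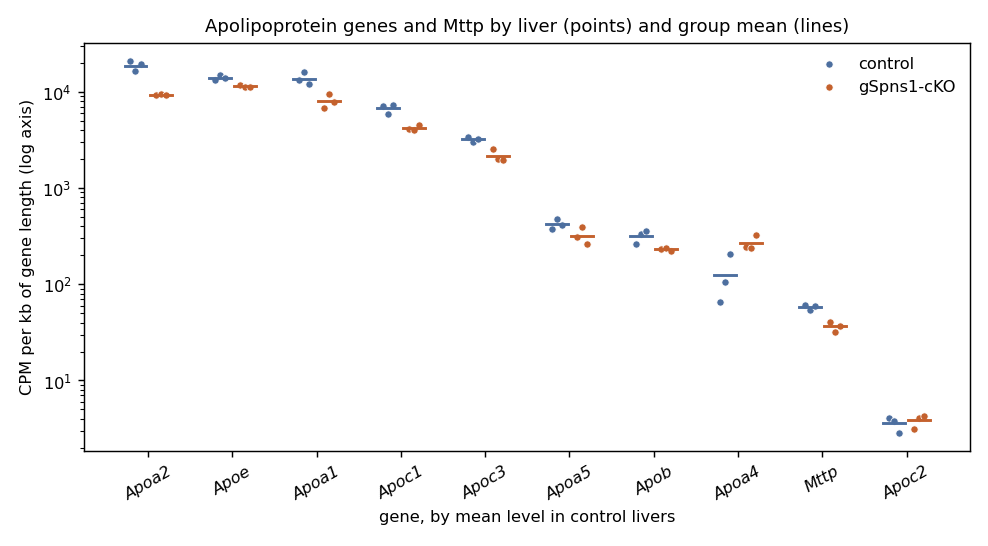
CPM per kb of gene length (log axis) of the 10 genes, with 1 point per liver and a line at the mean of 3 livers in each group. The genes span from 3.58 CPM per kb (*Apoc2*) to 18676 (*Apoa2*) in control livers, and *Apoa4* is the one gene apart from *Apoc2* with the higher mean in g*Spns1*-cKO livers. The lengths include bases that *Apoa4* and *Apoc2* share with other genes, so their levels against the other genes are uncertain.

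A ratio of 2 genes within a library does not depend on how libraries are scaled. Of 6 pairs, *Apoa4* over *Apoa1* was the pair whose groups did not overlap. Its log2 ratio of counts was −7.08, −6.68 and −5.32 in control livers and −4.27, −4.74 and −4.02 after deletion, a difference of 2.01 ± 0.57 (SE) or 4.04-fold. The exact two-sided permutation test gave p = 0.1, the smallest that 3 livers against 3 allow, and 0.4 after Benjamini-Hochberg adjustment over the 6 pairs. No pair could therefore pass 0.05.

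The activator-to-inhibitor ratios overlapped between groups. *Apoc2* over *Apoc3* differed by 0.68 ± 0.31 (SE, log2, exact permutation p = 0.2), with the doubt on *Apoc2* counts given above, and *Apoa5* over *Apoc3* by 0.17 ± 0.26 (exact permutation p = 0.6). *Apob* over *Mttp* differed by 0.23 ± 0.20 (exact permutation p = 0.5), *Apoa2* over *Apoa1* by −0.23 ± 0.24 (exact permutation p = 0.3) and *Apoe* over its neighbour *Apoc1* by 0.39 ± 0.15 (exact permutation p = 0.2). Adjusted over the 6 pairs, these p-values lay between 0.4 and 0.6.

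**Figure D3:**
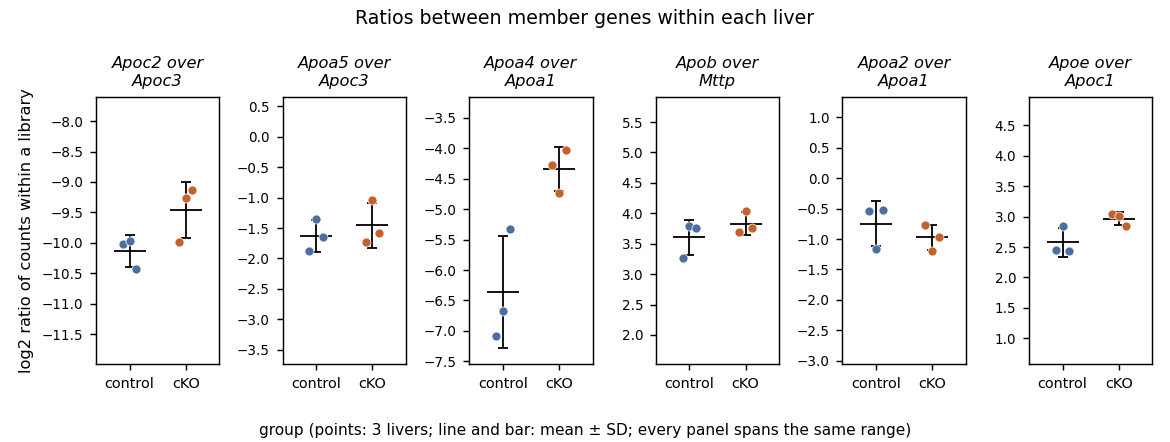
Log2 ratio of the counts of 2 genes within each library for 6 pairs, with 1 point per liver and the mean ± SD of 3 livers per group, every panel spanning the same range. *Apoa4* over *Apoa1* is the one panel in which the groups do not overlap, from −7.08 to −5.32 in control and from −4.74 to −4.02 in g*Spns1*-cKO livers.

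The genes differed in how much livers of a group varied. In control livers the SD of log2 CPM was 0.82 for *Apoa4* and between 0.08 (*Apoe*) and 0.27 (*Apoc2*) for the others. In g*Spns1*-cKO livers it ran from 0.03 (*Apoa2*) to 0.30 (*Apoa5*), with *Apoa4* at 0.26. Deviations from the group means, over the 6 libraries, ran together for *Apoc3* and *Mttp* (Pearson r = 0.80) and for *Apoa4* and *Apob* (0.79), and opposite for *Apoa2* and *Apoe* (−0.93) and for *Apoa1* and *Mttp* (−0.92). These are descriptions over 6 points that share the libraries and their scaling.

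Within the chromosome 9 cluster, *Apoa1* and *Apoc3* were lower, *Apoa5* was not called, and *Apoa4*, between *Apoc3* and *Apoa5*, was the one with a positive log2 fold change (not called). The 11 other genes tested in or around it (the 5 nearest on each side and *Gm47528* inside) included 4 called lower and 0 higher by edgeR's quasi-likelihood test (2 higher at an unadjusted p under 0.05, 0 by DESeq2 or limma-voom), with a median log2 fold change of 0.08. Over all genes tested, 20.5% were called lower and 21.3% higher. The 4 lower neighbours were *Sidt2* on the left and *Zpr1* (−0.81 ± 0.14), *Bud13* (−1.50 ± 0.20) and *4931429L15Rik*, the 3 nearest on the right. *Sik3*, the kinase gene next to *Apoa1*, had a log2 fold change of 0.07 ± 0.10 (adjusted p = 0.610).

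Around the chromosome 7 cluster 5 of 11 genes were lower and 2 higher, beside 20.5% and 21.3% of all genes tested, with a median of −0.39. *Apoc4*, the apolipoprotein gene between *Apoc2* and *Apoc1*, had 687 ± 82.2 CPM in control and 513 ± 73.4 CPM in g*Spns1*-cKO livers (SD, n = 3), with −0.42 ± 0.16 as log2 fold change (SE, adjusted p = 0.0531, edgeR's quasi-likelihood test). Its groups did not overlap, and the edgeR test called it lower without g*Spns1*-cKO replicate 2 (adjusted p = 0.0284). DESeq2 also called it lower (adjusted p = 0.0143), while with library size only it was at 0.02 (adjusted p = 0.909, edgeR). *Tomm40*, a mitochondrial import gene next to *Apoe*, was at 0.02 ± 0.14, and *Nectin2*, beyond it, was lower at −1.44 ± 0.21. *Bcam* (1.04 ± 0.22), an adhesion molecule gene, and *Relb* (1.01 ± 0.33), which encodes an NF-kB subunit, were higher. Of these 22 neighbours, 4 were lower and 9 higher with library size only, beside 6.28% and 47.2% of all genes tested.

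**Figure D4:**
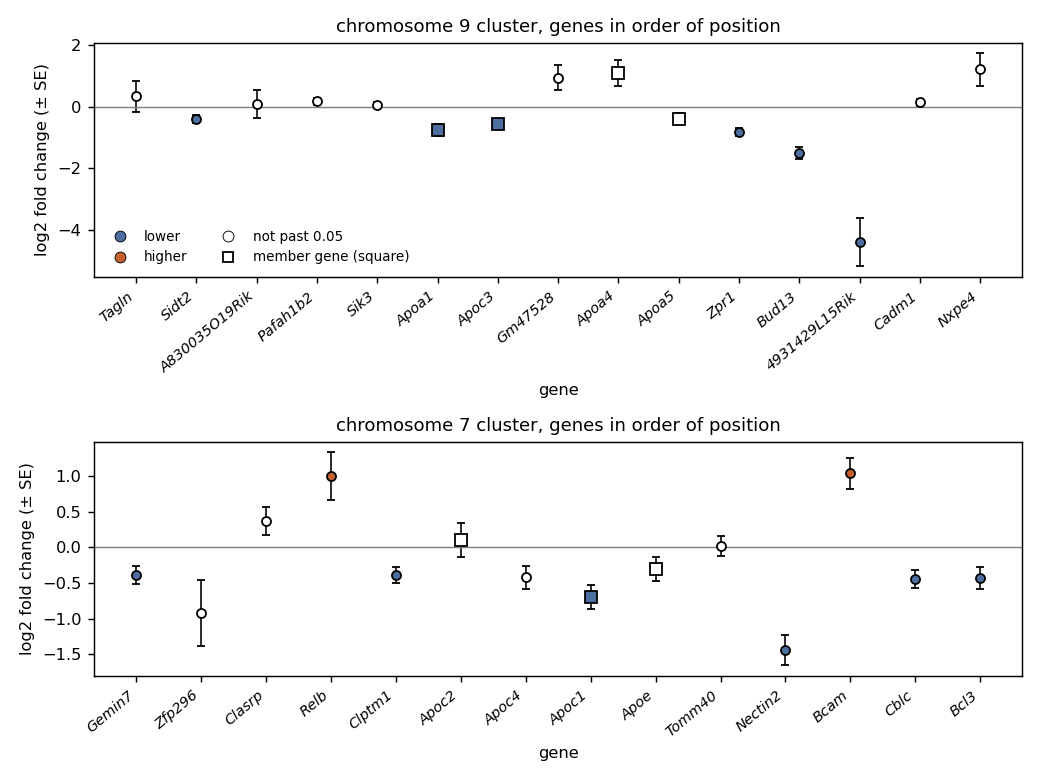
Log2 fold change with standard error of the genes tested in and around the chromosome 9 cluster (top) and the chromosome 7 cluster (bottom), in order of position but not to distance, under TMM scaling. Squares are the genes of the set and colour marks calls by edgeR's quasi-likelihood test. *Apoa4*, at 1.11, lies above *Apoa1* at −0.76, *Apoc3* at −0.56 and *Apoa5* at −0.38.

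Other genes of lipoprotein metabolism were examined in 7 lists. Of 75 genes tested, 34 were lower and 11 higher by edgeR's quasi-likelihood test, beside the 20.5% and 21.3% of all genes, and their median log2 fold change was −0.43. With library size only, 17 were lower and 19 higher, and the median was 0.02. Of all genes tested, 6.28% were lower and 47.2% higher under that scaling, with a median of 0.46. The lists were chosen with results of these data known and are not independent evidence.

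Of the other apolipoprotein genes, 5 of 9 tested were lower and 0 higher by edgeR's quasi-likelihood test, with a median log2 fold change of −0.91. None was higher at an unadjusted p under 0.05, by DESeq2 or by limma-voom. *Apoc4* and *Apoh*, not called by edgeR, were lower by DESeq2 (adjusted p = 0.0143 and 0.0138), where 21.2% of all genes were called lower. With library size only both had a log2 fold change of 0.02. *Apon* had 543 ± 103 CPM in control and 131 ± 52.8 CPM in g*Spns1*-cKO livers (SD, n = 3), and its log2 fold change was −2.05 ± 0.29 (SE). *Saa4*, the constitutive serum amyloid A gene, fell by 2.16, *Clu*, encoding clusterin (apoJ), by 0.91, and *Apof*, encoding an inhibitor of cholesteryl ester transfer, by 0.88 on the log2 scale. The fifth, *Apom*, named here after its value was seen, fell by 0.52, and its call was lost without control replicate 2 or g*Spns1*-cKO replicate 3 (adjusted p up to 0.0717). Under library size only, *Apon* and *Saa4* were lower and *Clu* (adjusted p = 0.0830) and *Apof* (0.0548) did not pass. Also named after their values were seen, the acute-phase paralogs *Saa1* and *Saa2*, between which reads can be shared, averaged 3021 ± 2734 and 2365 ± 2182 CPM in control and 76.1 ± 78.1 and 41.6 ± 43.2 CPM in g*Spns1*-cKO livers (SD, n = 3), with overlap. They did not pass edgeR's quasi-likelihood test with all 6 livers (adjusted p = 0.104 and 0.109). Both were called lower without control replicate 1 (adjusted p = 0.0366 and 0.0347) and by DESeq2 (adjusted p = 0.00139 and 0.00108).

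Among 18 genes of VLDL assembly and secretion, 9 were lower and 1 higher, with a median of −0.46. The lower genes included *Aadac* (−0.95 ± 0.16), a lipid hydrolase of the endoplasmic reticulum, *Cideb* (−0.90 ± 0.12), which aids VLDL lipidation, *Pla2g12b* (−0.79 ± 0.14), a catalytically inactive phospholipase needed for VLDL expansion, and *Sar1b* (−0.63 ± 0.12), the coat GTPase of lipoprotein export. *Tm6sf2*, which is required for normal VLDL lipidation, was higher, at 56.9 ± 9.93 CPM in g*Spns1*-cKO and 35.0 ± 6.30 CPM in control livers (SD, n = 3, log2 fold change 0.70 ± 0.16, adjusted p = 0.00728, edgeR's quasi-likelihood test). With library size only 2 were lower and 4 higher, beside 6.28% and 47.2% of all genes tested, and *Sar1b* (adjusted p = 0.217) and *Pla2g12b* (0.0534) did not pass.

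The 4 genes of the complex that edits *Apob* mRNA went different ways. *Apobec1*, the deaminase, was higher at 21.7 ± 5.22 CPM in g*Spns1*-cKO and 12.9 ± 1.61 CPM in control livers (SD, n = 3, log2 fold change 0.74 ± 0.17, adjusted p = 0.00682, edgeR's quasi-likelihood test). *Rbm47*, an RNA-binding cofactor, was lower (−0.73 ± 0.10), and *A1cf*, the other cofactor, had a log2 fold change of −0.13 ± 0.12 (adjusted p = 0.412) that turned to 0.31 and passed with library size only (adjusted p = 0.0407). *Syncrip*, which binds the complex, was higher (0.40 ± 0.12), but not without control replicate 2, control replicate 3 or g*Spns1*-cKO replicate 3 (adjusted p up to 0.0798). Editing itself was not measured by these counts.

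Of 8 lipolysis genes 2 were higher and 4 lower, with a median of −0.51. *Lpl*, the lipase of peripheral capillaries, stood at 13.4 ± 0.623 CPM in control and 295 ± 67.5 CPM in g*Spns1*-cKO livers (SD, n = 3, log2 fold change 4.46 ± 0.18), and *Gpihbp1*, which anchors it on endothelium, rose by 0.50 ± 0.11. *Lipc*, the hepatic lipase gene, fell by 1.43, *Lipg*, the endothelial lipase gene, by 2.43, *Lmf1*, the lipase maturation factor gene, by 0.98 and *Angptl4*, a lipase inhibitor gene, by 2.86 on the log2 scale. These 6 calls held with library size only.

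Of 5 genes of HDL formation and remodelling 1 was higher and 2 were lower, with a median of −0.05. *Abcg1*, a sterol exporter, was higher (1.63 ± 0.14), and *Lcat*, which esterifies HDL cholesterol, was lower (−1.11 ± 0.17). *Pltp*, the phospholipid transfer protein gene, was also lower (−2.00 ± 0.39, adjusted p = 0.0111, edgeR's quasi-likelihood test), but not without g*Spns1*-cKO replicate 3 (adjusted p = 0.0510). *Abca1*, which lipidates apoA-I, had a log2 fold change of 0.35 ± 0.13 (adjusted p = 0.0584), which passed without control replicate 1 or g*Spns1*-cKO replicate 2 (adjusted p down to 0.0425). It was also called higher by DESeq2 (adjusted p = 0.0459), with upper-quartile scaling (0.0164) and with library size only (0.000727). *Scarb1*, the HDL receptor gene, was at −0.05 ± 0.16 (adjusted p = 0.837), and at 0.40 with library size only.

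Of 8 receptor genes and their regulators tested, 3 were lower and 2 higher, with a median of −0.26. Among the lower genes were *Lrp1* (−0.74 ± 0.17), the remnant receptor gene, and *Lrpap1* (−0.87 ± 0.10), its chaperone gene. *Vldlr* rose from 1.12 ± 0.501 to 9.38 ± 6.19 CPM (SD, n = 3, log2 fold change 3.08 ± 0.66), a call lost without control replicate 1 or 2 (adjusted p up to 0.0606), and *Mylip*, which degrades these receptors, rose by 0.57 ± 0.14. *Lrp1* did not pass with library size only (adjusted p = 0.165).

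Among 23 transcription factor and coregulator genes 10 were lower and 3 higher, with a median of −0.41. *Cebpa* (−1.41 ± 0.18), *Creb3l3* (−1.35 ± 0.15) and *Foxa3* (−1.34 ± 0.18), all regulators of hepatocyte genes, were lower under both scalings. *Onecut1* was lower (−1.44 ± 0.47), a call that held only without control replicate 3 among the leave-one-out fits (adjusted p up to 0.130 in the others). *Ppargc1a* (1.30 ± 0.28), a coactivator of fasting genes, *Nr0b2* (1.20 ± 0.22), the corepressor SHP, and *Foxa2* (0.49 ± 0.15) were higher, and *Foxa2* did not pass without control replicate 1 or 2 or g*Spns1*-cKO replicate 2 or 3 (adjusted p up to 0.0931).

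**Figure D5:**
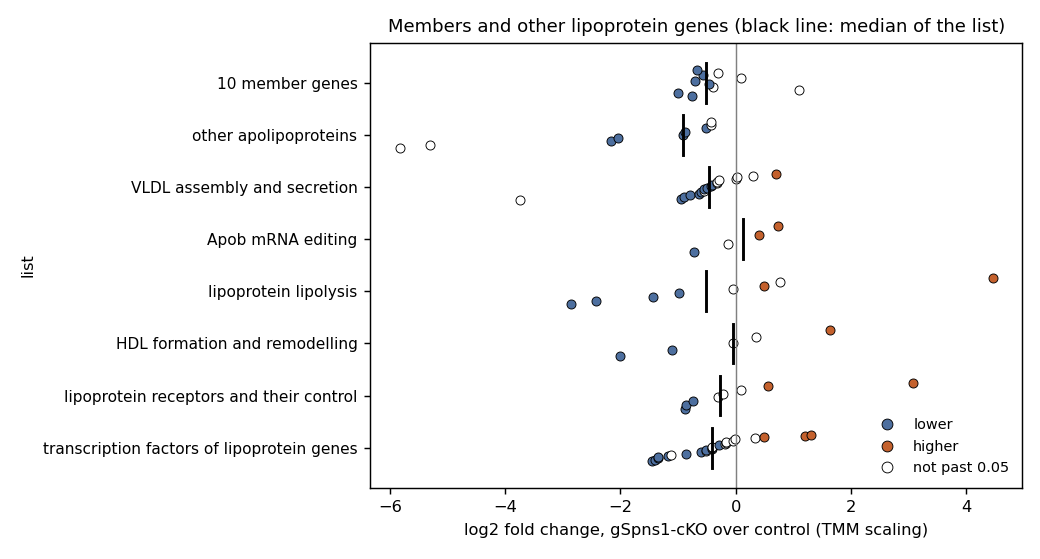
Log2 fold change, g*Spns1*-cKO over control (TMM scaling), of the 10 genes and of each gene tested in 7 lists of lipoprotein genes. Colour marks calls by edgeR's quasi-likelihood test, the black line is the median of a list and the grey line the median of all genes tested (0.01). The 10 genes have a median of −0.51, and *Lpl*, at 4.46, lies farthest to the right.

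Markers of the cell types of liver moved with the groups. For comparison, edgeR's quasi-likelihood test called 20.5% of all genes tested lower and 21.3% higher. Among the 100 most abundant genes it called 53.0% lower and 0 higher. Of 10 hepatocyte markers 5 were lower, *Alb* among them, and 0 higher by edgeR's quasi-likelihood test (0 at an unadjusted p under 0.05, 1 by DESeq2 and 0 by limma-voom), with a median log2 fold change of −0.51 and a summed level of 94227 to 107856 CPM in control and 61455 to 69798 CPM in g*Spns1*-cKO livers. *Alb* made up most of that sum, at a mean of 69348 CPM in control and 41886 CPM in g*Spns1*-cKO livers. Of the 5 not called, *Ttr* (−0.47) and *Apoh* (−0.43) had negative log2 fold changes and *Ahsg* was at −0.01. *Trf* (0.33) and *Cps1* (0.36), the one called higher by DESeq2, had positive ones. Under library size only, 2 were lower and 2 higher, beside 6.28% and 47.2% of all genes tested. All 10 macrophage markers were higher, with summed levels of 184 to 296 CPM in control and 774 to 1086 CPM in g*Spns1*-cKO livers, and they ran from *Clec4f* at a log2 fold change of 1.14 to *Gpnmb* at 6.84.

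Endothelial (5 of 6 higher, 137 to 153 against 202 to 249 CPM summed), stellate and fibroblast (5 of 6 higher, 187 to 213 against 497 to 543 CPM) and cholangiocyte markers (5 of 5 higher, 44.2 to 62.9 against 170 to 279 CPM) also rose. Of all genes tested, 21.3% were called higher. Of 5 lymphocyte markers 0 were called by edgeR's quasi-likelihood test, DESeq2 or limma-voom, and 0 had an unadjusted p under 0.05. Of 6 enterocyte markers, *Sis*, *Lct*, *Alpi* and *Rbp2* had at most 3 counts in every library, while *Fabp2*, at 114 CPM on average in control livers, was lower and *Vil1*, at 0.590 CPM on average in g*Spns1*-cKO livers, was higher. Gut is the other main source of *Apoa4*, *Apob* and *Mttp* mRNA. The part of the marker lists that moved in the differences of the 10 genes, and in those of *Lpl*, *Abcg1* and *Vldlr*, was not tested.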

How the data were processed

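RNA-Seq data of 3 g*Spns1*-cKO and 3 control livers were used, grouped by the sample labels. Per the submitters' processing notes, reads were handled with fastp, HISAT2 2.0.5 and featureCounts 1.5.0-p3 on mm10. The strand setting and the treatment of overlapping genes are not given in the sources used here. The authors deposited 1 table with raw counts per gene and library, the unit of the tests. They also deposited FPKM (counts over gene length and a library total), used here only to recompute ratios, and the gene length in bases. The signal per group, log2 fold change and p-value columns that the authors deposited hold their own comparison and were not used.

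The counts were fitted with edgeR 4.0.16 under R 4.3.3 (filterByExpr by genotype, TMM, robust glmQLFit, quasi-likelihood test, Benjamini-Hochberg over 15449 genes, threshold 0.05). The standard error is the log2 fold change over the square root of F. The fit was tested on simulated data. A total of 30350002 to 35295611 counts per library sets the precision, and 3 counts, the floor, were 0.0763 to 0.119 CPM. Chi-square per gene between libraries of a group was 40.1 to 121, so each was counted as a replicate. Of the genes listed, 54409 were found in GENCODE M21 (GRCm38), 98.3% with identical coordinates, and upstream sequences are from RefSeq.

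The genes and lists were chosen with earlier results of these data known. Of each list, the genes that passed were named, up to 4 in each direction with the largest absolute log2 fold change and at least 1 CPM on average, and every gene of lists of at most 6. A gene that this rule selects is not reported here. The alternatives were library size only, upper-quartile and RLE scaling, TMM without the 50 most abundant genes, DESeq2 1.42.0, limma-voom (limma 3.58.1), filters of at least 1 count in any or 10 in every library, protein-coding genes only, a replicate block, a threshold of 0.01 and leaving out each library.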

Additional observations from a re-analysis of the deposited data

How the results depend on the processing

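Of the 6 genes lower in g*Spns1*-cKO livers, 1 remained lower with library size only, where 1 was higher. The higher count also became 1, *Apoa4*, with the replicate block, with limma-voom and without control replicate 3, so that over the leave-one-out fits it ran from 0 to 1. Library size only called 6.28% of all genes tested lower and 47.2% higher. It changed the pathway lists to 17 lower and 19 higher and the cluster neighbours to 4 lower and 9 higher. It turned the log2 fold change of *Apoa5* to 0.059, *Apoe* to 0.14, *A1cf* to 0.31 and *Scarb1* to 0.40. The median of all genes shifted by 0.44 between these scalings, and relative to it the 10 genes followed here moved by at most 0.0126. *Scarb1* was also at 0.086 with upper-quartile scaling and, leaving out 1 library, between −0.222 and 0.0434 (0.0434, 0.0157 and 0.0316 without control replicate 2, control replicate 3 and g*Spns1*-cKO replicate 1), and *Apoc2* from −0.0420 to 0.224. The *Apoa5* over *Apoc3* difference ran from −0.0333 to 0.315 over the leave-one-out values. The share of counts differed by −0.84 percentage points with the 50 most abundant other genes left out of the total. *Apoa1*, *Apoc1* and *Mttp* were lower in 15 of 16 alternative fits and *Apoc3* in 11.

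The replicate numbers did not pair the samples, with correlations of same-numbered deviations of 0.04, 0.03 and −0.03. With the replicate block 5 genes were lower, *Apob* being lost (adjusted p = 0.0812, edgeR's quasi-likelihood test), and 1 was higher. The 6 ratios kept their differences under the block, with an exact permutation p of 0.25, the smallest that 3 pairs allow.

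Of the 45 calls in the pathway lists, 33 held in every leave-one-out fit. Summing overlapping genes, an alternative chosen after seeing the data, moved no direction. It could move little, because the overlapping genes had few counts (0 for *Apoa5*, 0 or 1 per library for *Apoc2*). Reads on shared bases that were left out of every gene would not be in these sums, so the effect of the overlaps was not tested. Limits are the 3 mice per group, the count of *Apoc2*, which rests on few bases of its own, and the lack of an external standard, without which a lower level per cell and a greater share of other RNA cannot be told apart.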
